A study of Mus musculus with 4 samples.

Results

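Expression in normal mammary fibroblasts lacking Ets2 was compared with that in normal mammary fibroblasts carrying it, on 2 of the 4 arrays of the series, 1 array for each genotype. All 34958 probe sets that the platform annotation gives exactly 1 gene symbol entered the comparison, out of 45101 on the array, and they stand for 18194 genes. The Ets2 present fibroblasts were from Ets2db/loxP mice and the Ets2 null fibroblasts from FspCre;Ets2db/loxP mice. Both genotypes therefore carry a conventional knockout allele (db, which alters the DNA-binding domain) beside the conditional loxP allele, so that Ets2 present means a single working copy. The Cre recombinase that removes the conditional allele is driven by the promoter of fibroblast-specific protein 1, the product of S100a4, a promoter that is also known to be active in some cells other than fibroblasts. The mice were FVB/N females aged 16 weeks with no oncogene in the mammary epithelium, and the cells were stromal cultures grown from mammary glands in serum and harvested at the second passage. Pooling of animals for an array was not given in the sources used here. The other 2 arrays, fibroblasts of the same genotypes from glands with the ErbB2 oncogene, are quoted for side-by-side values only.

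Ets2 is a transcription factor of the ETS family, whose members bind DNA sites built around a GGAA core and act downstream of Ras and mitogen-activated protein kinase signals. Fibroblasts of the mammary stroma make the interstitial matrix of fibrillar collagens and small leucine-rich proteoglycans, and supply factors that act on vessels and epithelium. A primary stromal culture can also hold endothelial, myeloid, muscle and epithelial cells carried over from the gland. In such a bulk sample, fewer cells of a type and less RNA per cell cannot be told apart.

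With 1 array a side there is no replicate error and no test, so all differences are sizes on the log2 scale, Ets2 null minus Ets2 present. A difference of 1 is 2-fold. Each gene is read from its brightest probe set, and a value under log2 6 was not taken as shown to be above background, so that folds are given only where both arrays exceed it. Over the 18194 genes the median difference was 0.00 and the middle of the distribution ran from -0.14 to 0.15 (lower to upper quartile). More than 2-fold lower in Ets2 null fibroblasts were 65 genes (0.357%), and 113 were more than 2-fold higher (0.621%). Of these, 61 and 98 lay between 2-fold and 4-fold. At 1.5-fold the numbers were 341 lower (1.87%) and 421 higher (2.31%). Among the 10644 genes that reached log2 6 on at least 1 array, 59 lay lower by over 2-fold (0.554%) and 97 higher (0.911%), and at 1.5-fold 263 (2.47%) and 305 (2.87%). The spread between probe sets of the same gene gives a scale within the arrays: over 4436 genes with 2 or more probe sets at log2 6, the median range of their differences was 0.19 and the 90th percentile was 0.49. A total of 43 genes beyond 2-fold had another such probe set, and in all 43 the sign was the same.

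Fibroblast markers were bright on both arrays. Vim, the intermediate filament of mesenchymal cells, was at log2 14.05 in Ets2 present and 14.06 in Ets2 null fibroblasts, S100a4 at 13.73 and 14.08, and Pdgfrb, a platelet-derived growth factor receptor, at 11.67 and 11.19. Over 26 fibroblast identity genes the median difference was -0.06. Single members differed more: at 1.5-fold 4 were lower (15.4%, beside 1.87% of all genes) and 2 higher (7.69%, beside 2.31%). Ets2 itself did not serve as a check of genotype. Its 3 probe sets had 8.14, 6.38 and 3.51 in Ets2 present and 8.35, 6.42 and 3.24 in Ets2 null fibroblasts, and their position along the transcript was not given in the sources used here. The paper reports loss of ETS2 protein by Western blot in FspCre;Ets2db/loxP fibroblasts from glands with the PyMT oncogene. For cultured fibroblasts from such glands it also reports loss of staining for phosphorylated ETS2. Those cultures are not on these arrays. The 15 ETS family genes measured had a median of -0.06, and none was beyond 1.5-fold. Control probe sets for the 2 ends of Gapdh differed by -0.17 and -0.15, 3′ minus 5′, on the Ets2 present and null arrays. Spiked poly-A controls were higher on the Ets2 null array by a median of 0.33 over 24 probe sets, and their part in any difference was not tested.

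**Figure D1:**
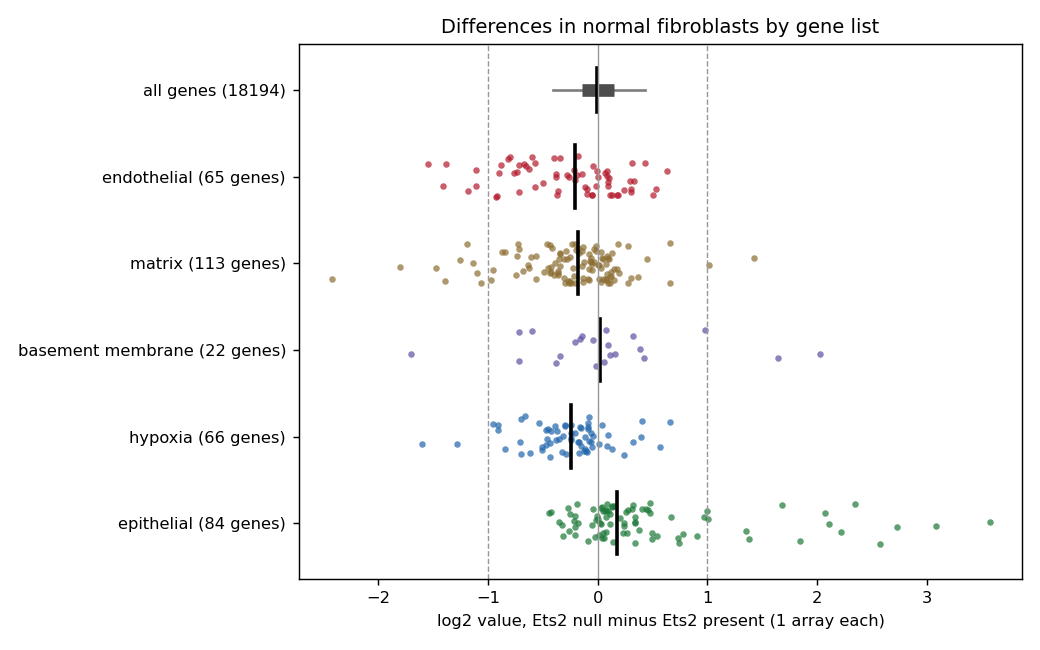
Log2 difference (Ets2 null minus Ets2 present, normal fibroblasts, 1 array each; horizontal axis) for each measured gene of 5 lists, 1 point per gene, with black lines at the list medians. For all 18194 genes the thick bar spans the quartiles and the thin line the central 90%. Dashed lines mark 2-fold. Hypoxia (median -0.24), endothelial (-0.21) and matrix (-0.18) genes lie mostly to the left, epithelial genes (0.17) trail to the right, and basement membrane genes (0.02) are spread to both sides.

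Endothelial genes were lower in Ets2 null fibroblasts. Of the 65 genes of the list, 44 were below 0. More than 1.5-fold lower were 20 genes (30.8%, beside 1.87% of all genes) against 1 higher, and more than 2-fold lower were 6 (9.23%, beside 0.357%) against 0 higher. The median difference was -0.21, and -0.39 over the 36 genes at log2 6, where 15 of 36 were more than 1.5-fold lower. The array medians of the list were 6.31 with Ets2 and 5.81 without it.

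Junction and adhesion proteins of the vessel wall stood lowest, with a median of -0.81 over 10 genes. Pecam1, which encodes CD31, the adhesion protein by which vessels are usually stained, was at 6.54 in Ets2 present and 5.16 in Ets2 null fibroblasts, a difference of -1.38. Emcn, the sialomucin endomucin, was at 7.84 and 6.67, a 2.26-fold difference. Cldn5, the claudin of endothelial tight junctions, was at 6.45 and 5.34. The adhesion molecule Esam and the lectin-like receptor Cd93 had differences of -0.82 and -0.80, and Cd34, at 5.90 and 4.99, was under log2 6 on both arrays. Jam2, a junctional adhesion molecule and among the 3 brightest genes of the list, went the other way, at 8.86 and 9.49. In this group 8 of 10 genes were thus lower, and Jam2 was joined by Clec14a (5.78 and 6.28, chosen after its values were seen).

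Outside the junctions, Plvap, the protein of the diaphragms of fenestrated capillaries, had the largest difference of the list, 8.40 in Ets2 present and 6.86 in Ets2 null fibroblasts, 2.91-fold lower. Esm1, an endothelial proteoglycan, was dim on both arrays (4.81 and 3.40). The lipoprotein lipase anchor Gpihbp1, the EMILIN family protein Mmrn2, the surface protein Ecscr and the secreted Egfl7 had differences between -0.88 and -0.67. Angpt2, another of the 3 brightest genes, had 8.72 and 8.71.

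Receptors were lower in smaller steps. Their median over 18 genes was -0.32 and 13 were below 0. Robo4, the endothelial member of the Slit receptor family, was at 6.35 and 5.25, the receptor activity-modifying protein Ramp2 at 6.80 and 6.21, and the adhesion receptor Adgrl4 at 5.77 and 5.04. The VEGF receptors followed: Flt1 was at 7.59 and 7.09, and Kdr at 7.46 and 7.06. Flt1 was lower on all 3 of its probe sets at log2 6, with differences from -0.68 to -0.50. Eng, the endoglin co-receptor for TGF-beta that fibroblasts also express and the brightest gene of the list, was at 9.55 and 9.27. Among 12 transcription factors the median was -0.12, with Bcl6b (-0.93), Sox18 (-0.90) and the ETS factor Erg (-0.57) lowest and the ETS factor Fli1 at 0.33. The 4 Notch genes Jag2, Notch4, Dll4 and Hey1 lay between -0.05 and 0.18.

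**Figure D2:**
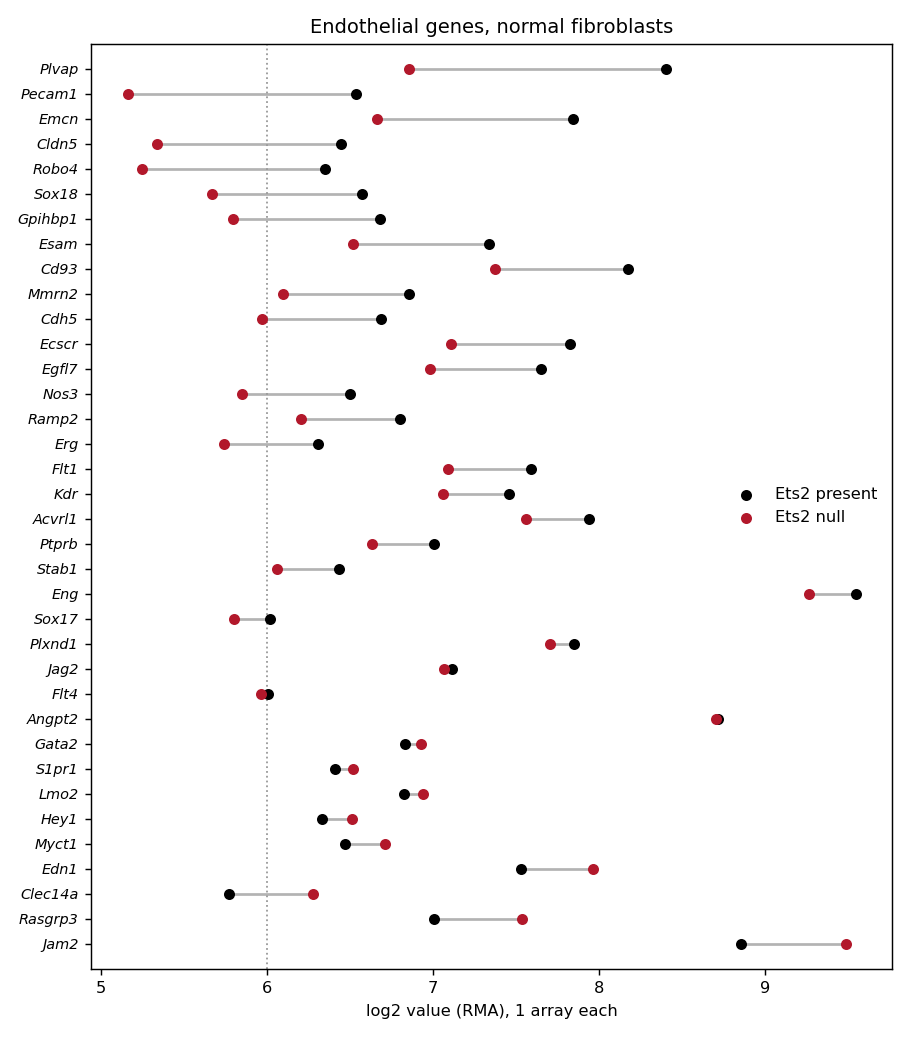
Log2 values (horizontal axis) of the 36 endothelial genes that reached log2 6 (dotted line) on at least 1 array, in Ets2 present (black) and Ets2 null (red) normal fibroblasts, 1 array each, ordered by difference. The red points lie to the left for 27 of the 36 genes, most clearly for Plvap, Pecam1, Emcn, Cldn5 and Robo4, and to the right for genes such as Jam2.

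The 6 endothelial genes beyond 2-fold were also below 0 in ErbB2 fibroblasts lacking Ets2, but Esm1 (-0.01) and Cldn5 (-0.10) hardly differed there. Of the 6, 2 were beyond 2-fold there, and the list median on those arrays was -0.17. Shares over all genes were not counted on the ErbB2 arrays, for this or the other lists. The list of angiogenic factors, which holds ligands and some receptors, did not share the pattern as a whole. Over its 25 genes the median was -0.06, with 12 above 0 and 13 below. The median was 0.10 for 13 ligands of the VEGF and other growth factor families. It was -0.08 for 12 guidance proteins, chemokines and receptors. The mitogen Fgf2 was at 6.14 and 6.99, the lymphatic growth factor Vegfc at 8.01 and 8.83, and Vegfa at 9.56 and 9.40. Cxcl12, the chemokine of the stroma that attracts CXCR4-bearing cells, was at 10.91 and 9.15, 3.38-fold lower, and Sema3a, a guidance ligand that repels growing vessels, at 5.67 and 6.39. Apln, the ligand of the vascular receptor Aplnr and among the 20 lowest genes of the comparison, was at 8.55 and 6.97. Markers of mural cells, the smooth muscle cells and pericytes that coat vessels, had a median of 0.18 over 20 genes. Of these, the pericyte gene Rgs5 was at 6.60 and 5.16, whereas the contractile genes Acta2 and Tagln were within 0.07 between the arrays. The part of other cell types in these differences was not tested.

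Matrix genes were lower too, at levels from dim to bright. Of 113 measured genes (120 listed), 77 were below 0. More than 1.5-fold lower were 21 (18.6%, beside 1.87% of all genes) against 4 higher, and more than 2-fold lower were 9 (7.96%, beside 0.357%) against 2 higher. The median was -0.18, and -0.25 over 83 genes at log2 6. Several of the brightest matrix genes hardly differed. Among them were Sparc (14.50 and 14.37), Lox (14.00 and 13.93) and Bgn (13.88 and 13.82), chosen after their values were seen.

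Fibrillar collagens, which form the tensile fibers of the stroma, had a median of -0.46, with 8 of 9 below 0. Col3a1 was at 13.62 in Ets2 present and 12.48 in Ets2 null fibroblasts, 2.20-fold lower, and at -1.62 on its other probe set. Col1a1 was at 13.71 and 13.10 and its partner chain Col1a2, chosen after its values were seen, at 14.52 and 14.29. Col5a3, a minor chain that regulates fiber diameter, was at 8.82 and 7.62.

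Of the other collagens, Col14a1, which decorates fibrils, was at 6.69 and 5.84 and Col8a1, a network former of vessel walls, at 9.82 and 9.14. Col7a1, the anchoring fibril collagen under epithelia, was instead higher, at 7.44 and 8.09, as was Col17a1, the hemidesmosome collagen of basal epithelial cells, although dim at 3.38 and 4.39. The enzymes that process collagen moved less, with a median of -0.23 over 13 genes and 10 below 0. Among these, the crosslinking enzyme Loxl1 was at 11.58 and 10.95 and the procollagen protease enhancer Pcolce at 12.82 and 12.40.

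Several proteoglycans that bind collagen fibrils were lower. Prelp was at 9.54 and 8.29, lumican (Lum) at 7.77 and 6.71, and decorin (Dcn) at 11.68 and 10.81. Prg4, the lubricant protein lubricin, was at 6.43 and 5.34. The group as a whole was split, with 12 of 21 below 0, and fibromodulin (Fmod) was at 9.98 and 10.43. Among 51 glycoproteins and elastic fiber proteins, 36 were below 0. Ccn3, a matricellular growth regulator, was the lowest gene of the whole comparison among those at log2 6, at 8.90 and 6.47, or 5.36-fold. Mgp, the inhibitor of calcification, was at 10.62 and 9.23, the SPARC relative Sparcl1 at 7.15 and 5.67 and the elastic fiber protein Mfap4 at 6.77 and 5.80. Npnt, a ligand of integrin alpha8 in basement membranes, was the exception beyond 2-fold in this group, at 9.10 and 10.52, and the Itga8 integrin chain itself was at 8.77 and 9.43.

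Basement membrane genes showed no common direction. Of 22 measured genes, 11 were below 0, and the median was 0.02. Beyond 2-fold, 1 was lower (4.55%, beside 0.357% of all genes) and 2 were higher (9.09%, beside 0.621%). At 1.5-fold 4 were lower (18.2%, beside 1.87%) and 3 higher (13.6%, beside 2.31%). The broadly expressed type IV chains Col4a1 (12.66 and 12.77) and Col4a2 (12.08 and 12.15, chosen after its values were seen) hardly differed. The laminin chain Lamc1 was at 9.90 and 9.19. The vessel-associated multiplexins were lower, with Col15a1 at 7.86 and 6.15, 3.26-fold, and Col18a1, the source of endostatin, with a difference of -0.71. In the opposite direction, Lama3 and Lamb3, subunits of the laminin of epithelial basement membranes, were at 4.74 and 4.24 with Ets2 and at 6.38 and 6.27 without it, and the linker protein Nid2 at 7.79 and 8.77. Both of these laminin chains were thus under log2 6 with Ets2.

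**Figure D3:**
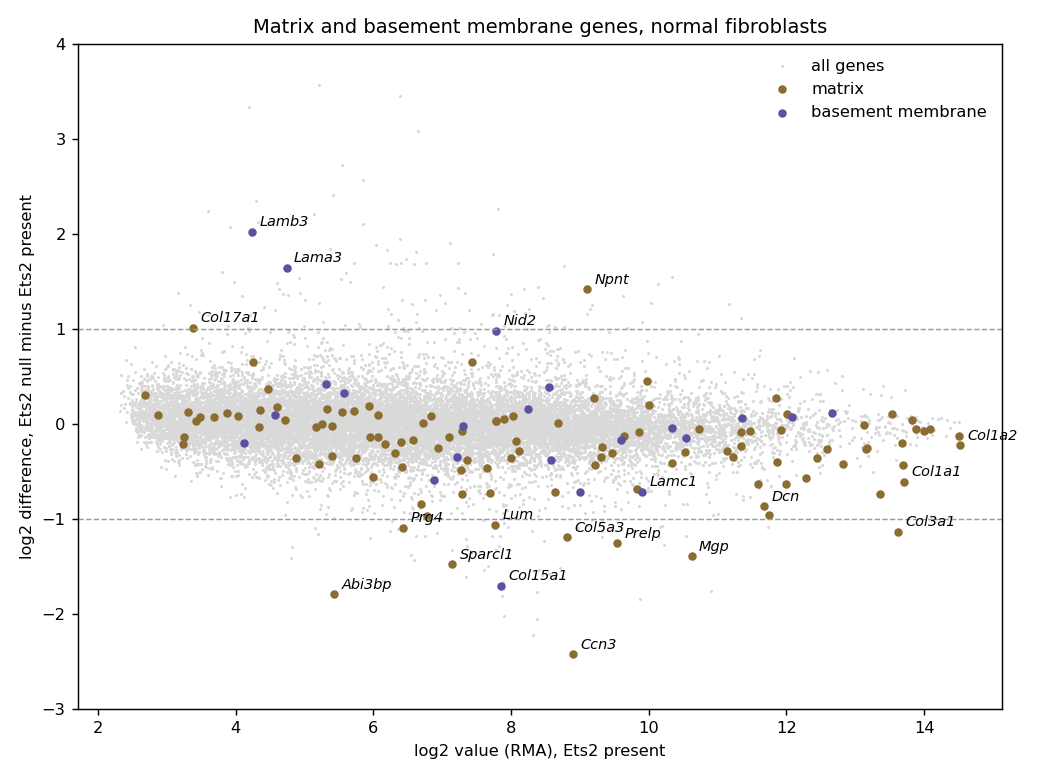
Log2 difference (Ets2 null minus Ets2 present; vertical axis) against the log2 value in Ets2 present normal fibroblasts (horizontal axis), 1 array each, for all genes (grey), matrix genes (brown) and basement membrane genes (purple). Dashed lines mark 2-fold. Matrix genes beyond 2-fold lower reach from dim (Abi3bp, 5.44) to among the brightest on the array (Col3a1, 13.62), and the genes above the upper line include the dim Lama3, Lamb3 and Col17a1.

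Matrix proteases with their inhibitors and receptors had a median of -0.04 over 53 genes, of which 9 were inhibitors and receptors. The largest difference among the genes of this list at log2 6 was that of Mmp3, stromelysin 1, at 9.87 and 8.02, 3.60-fold lower. Plat, tissue plasminogen activator, was at 9.18 and 8.17, and Fap, the serine protease of activated fibroblasts, at 6.83 and 5.85. Mmp9 was under log2 6 on both arrays (5.58 and 5.96, chosen after its values were seen). In ErbB2 fibroblasts the matrix list had a median of -0.11, and of the 9 matrix genes beyond 2-fold lower in normal fibroblasts 8 were below 0 and 5 more than 2-fold lower there. The remaining gene was Ccn3, at 2.94.

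The hypoxia response was lower by small steps across many genes. Hypoxia-inducible factors (HIF) are transcription factors whose alpha subunits are degraded when oxygen is present, and their targets raise glucose uptake and glycolysis and restrain mitochondria. Of 66 measured genes (69 listed), 55 were below 0, or 83.3%, where 50.5% of all genes were. Among genes at log2 6 on at least 1 array, 49 of 57 were below 0 (86.0%), where 54.4% of all such genes were. More than 1.5-fold lower were 11 (16.7%, beside 1.87% of all genes) against 1 higher, and 2 were more than 2-fold lower (3.03%, beside 0.357%) against 0 higher. The median was -0.24 and stayed at -0.24 over the 57 genes at log2 6. Promoters were examined for the core letters of the hypoxia response element, ACGTG or GCGTG on either strand. Shown here are 3 genes of the list that were lower and had several matches, picked after both were known, from RefSeq (GRCm38.p6), each as the 250 bases before the start of transcription, read 5′ to 3′ on the gene's strand, which is the minus strand for all 3, with the matches in capitals.
Bnip3, chr7:138909507-138909756: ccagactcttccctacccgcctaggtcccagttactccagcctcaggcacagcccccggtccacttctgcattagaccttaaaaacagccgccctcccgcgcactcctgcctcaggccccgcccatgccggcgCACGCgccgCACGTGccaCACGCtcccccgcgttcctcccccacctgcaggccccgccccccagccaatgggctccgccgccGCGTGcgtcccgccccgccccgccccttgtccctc
Fam162a, chr16:36071562-36071811: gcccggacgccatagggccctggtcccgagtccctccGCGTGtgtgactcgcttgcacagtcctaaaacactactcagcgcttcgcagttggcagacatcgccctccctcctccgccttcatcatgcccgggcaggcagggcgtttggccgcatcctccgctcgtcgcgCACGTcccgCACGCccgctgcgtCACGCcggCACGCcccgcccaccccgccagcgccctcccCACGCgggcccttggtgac
Ddit4, chr10:59951771-59952020: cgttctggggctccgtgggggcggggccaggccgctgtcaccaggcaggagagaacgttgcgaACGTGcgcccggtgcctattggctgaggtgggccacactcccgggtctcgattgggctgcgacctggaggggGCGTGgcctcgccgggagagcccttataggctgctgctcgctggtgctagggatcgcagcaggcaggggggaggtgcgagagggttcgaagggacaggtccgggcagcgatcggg
Bnip3 had 5 matches, of which a pair overlaps as CACGTG, Fam162a had 6 and Ddit4 had 2. In windows that add the 50 bases after the start, the letters were in 62 of 80 promoters of the hypoxia list (77.5%) and in 54.6% of 18110 promoters of all genes on the array. For hypoxia genes more than 1.5-fold lower the number was 10 of 11 promoters, and for the remaining hypoxia genes 52 of 69 (75.4%). Those 11 promoters belong to 9 genes, since a gene can have several, and none was available for Ndrg1, the lowest of the list, or Ndufa4l2. The letters GGAA of ETS sites, on either strand, were in 95.5% of all promoters, in 8 of the 11 promoters of hypoxia genes more than 1.5-fold lower and in 97.1% of those of the remaining hypoxia genes. A match of letters is not a binding site, and binding was not measured.

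Ndrg1, a stress-responsive gene much used as a readout of hypoxia, was at 8.44 in Ets2 present and 6.85 in Ets2 null fibroblasts, 3.02-fold lower, and each of its 5 probe sets was lower, with differences from -2.08 to -0.89. Ddit4 (REDD1), which restrains mTORC1, was at 10.22 and 8.95. Glycogen phosphorylase Pygl was at 7.94 and 7.03, and the MYC antagonist Mxi1 at 7.54 and 6.84. These were the lowest of 23 other HIF targets, of which 19 were below 0. The carbonic anhydrase Car9, a strong HIF target in many cells, was under log2 6 on both arrays (5.22 and 5.35, chosen after its values were seen).

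Among mitochondrial genes the median was -0.55, with 5 of 6 below 0. The mitophagy receptor Bnip3 was at 11.01 and 10.06, 1.93-fold lower, the complex I-associated Ndufa4l2 at 7.45 and 6.61, and Fam162a at 11.78 and 11.12. Higd1a had a difference of -0.43 and Pdk1, the kinase that shuts pyruvate out of the mitochondrion, of -0.42.

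Glycolytic genes were lower in 16 of 19 cases, with a median of -0.17. The lactate exporter Slc16a3 was at 8.41 and 7.50, the phosphofructokinase subunit Pfkl at 10.30 and 9.59 and the glucose transporter Slc2a1 at 10.62 and 10.09. The bright enzymes Aldoa (13.26 and 12.75) and Tpi1 (12.51 and 12.08) were lower by less. Ldha was nearly level at 13.46 and 13.38 (chosen after its values were seen).

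The factors themselves went in both directions. Hif1a was at 11.28 and 10.77 and was lower on all 3 of its probe sets at log2 6, with differences from -0.52 to -0.37. Epas1, which encodes HIF-2 alpha, was at 8.24 and 8.80, and Cited2, a HIF target that competes for its coactivator, at 10.70 and 11.36. The probe sets of Hif3a disagreed, at -0.70 and 0.10. Of the secreted targets, the stanniocalcin Stc2 was at 7.64 and 7.02, Angptl4 at 9.08 and 8.73, Adm at 10.40 and 10.34 and Stc1 at 7.27 and 7.59. Beside these, 38 cell cycle genes had a median of -0.08 and 24 ribosomal proteins of -0.07. A majority below 0 was not particular to the hypoxia list, since 27 of these 38 genes and 18 of these 24 were below 0. In both lists 0 genes were more than 1.5-fold lower. In ErbB2 fibroblasts the hypoxia median was -0.07, with 6 genes more than 1.5-fold lower and 7 higher, and Ndrg1 and Ddit4 were higher there, by 0.88 and 0.81.

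**Figure D4:**
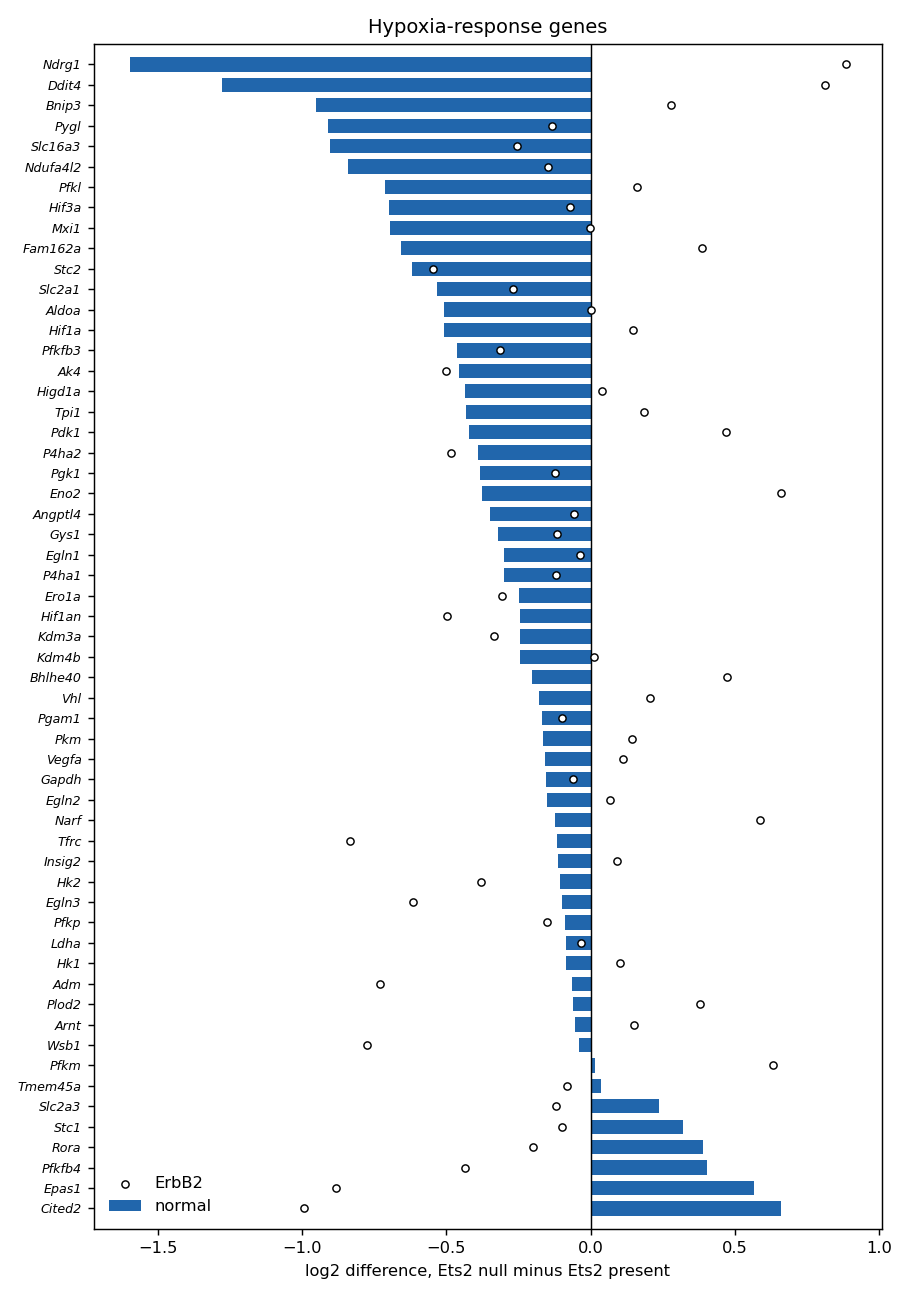
Log2 difference (Ets2 null minus Ets2 present; horizontal axis) of the 57 hypoxia-response genes that reached log2 6 on at least 1 normal array, in normal fibroblasts (bars) and in ErbB2 fibroblasts (circles), 1 array per genotype. Bars point left for 49 of the 57 genes, from Ndrg1 at the top (-1.60), while the circles lie on both sides of 0.

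Epithelial genes were higher in Ets2 null normal fibroblasts, and had the largest differences of the 5 lists. Of 84 measured genes, 63 were above 0. More than 1.5-fold higher were 20 (23.8%, beside 2.31% of all genes) against 0 lower, and more than 2-fold higher were 13 (15.5%, beside 0.621%) against 0 lower. The median was 0.17, and 0.46 over the 35 genes at log2 6. Most of these genes were near background with Ets2, since 23 of 84 reached log2 6 on that array and 35 did without Ets2. The summed level of the list, taken on the linear scale and returned to log2, was 12.41 and 13.13.

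Keratins led, with 6 of 16 more than 2-fold higher. Krt18 and Krt8, the paired keratins of simple and luminal epithelium, were at 5.21 and 6.65 in Ets2 present and at 8.78 and 9.73 in Ets2 null fibroblasts. For Krt8 this was an 8.49-fold difference. Krt14 and Krt5, the pair of basal and myoepithelial cells, were at 5.54 and 6.59 with Ets2 and 8.27 and 8.28 without it. The luminal keratin Krt7 was at 6.97 and 8.32 and Krt17 at 3.91 and 5.98. Keratins of both the luminal and the basal layer were thus among the higher ones. Not all keratins were higher, since 4 of 16 were below 0, from Krt80 (-0.33) to Krt4 (-0.18). Krt19, the brightest keratin with Ets2, was at 8.41 and 8.79. These 3 genes were chosen after their values were seen.

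Junction genes were higher as well, with 5 of 29 beyond 2-fold. The desmosome plaque protein Dsp was at 4.30 and 6.64, the tight junction claudin Cldn4 at 5.14 and 7.35, and the desmosome-associated Perp at 5.38 and 7.22. Pkp2, another plaque protein, was already well above background with Ets2, at 8.24 and 9.24. E-cadherin (Cdh1) was at 3.17 and 4.55, under log2 6 on both arrays. Epcam, the epithelial adhesion molecule, had probe sets that disagreed, at 8.29 and 7.98 on the brighter and 5.38 and 7.83 on the other. Of the secreted and surface genes, Wfdc2 was at 5.85 and 8.42 and Cd24a at 5.85 and 7.95.

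Regulators of the epithelial state differed less, and milk genes were dim on both arrays. Over 15 transcription and splicing factors the median was 0.05 and 0 were beyond 2-fold. The splicing regulator Esrp1 had the largest value, at 3.51 and 4.41, and the luminal factor Gata3 (4.21 and 4.62) and the basal factor Trp63 (3.99 and 3.72) were dim on both arrays. The milk genes Csn2 (4.02 and 4.03) and Wap (5.29 and 5.39), were chosen after their values were seen.

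In ErbB2 fibroblasts the 13 epithelial genes beyond 2-fold were below 0, and 11 of them were more than 2-fold lower without Ets2. Krt18 was at 8.52 with Ets2 and 5.01 without it there, and Krt14 at 8.26 and 4.93. High values were thus found on the normal Ets2 null and the ErbB2 Ets2 present arrays, and low values on the other pair. Over the list, the medians were 5.21 and 5.61 in normal and 5.45 and 4.98 in ErbB2 fibroblasts. The paper reports strong enrichment for fibroblasts in such cultures by vimentin staining, shown for cells from glands with another oncogene, PyMT. No count of epithelial cells was given for the cultures on these arrays. The part of carried-over cells in these values therefore cannot be told apart from expression in fibroblasts.

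**Figure D5:**
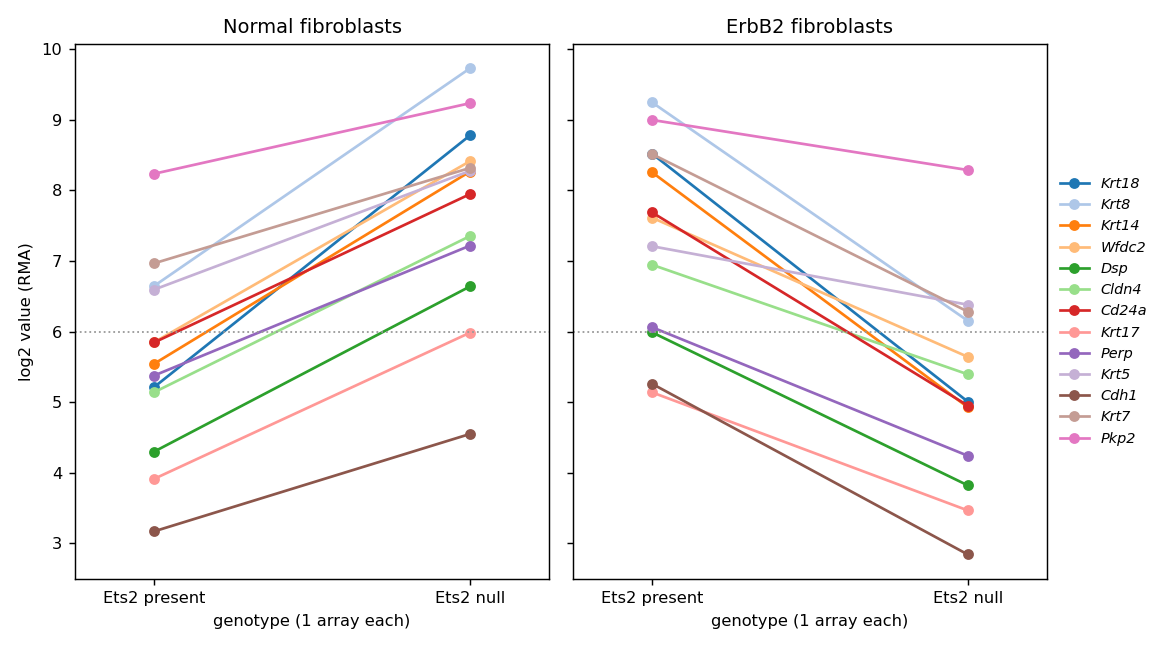
Log2 values (vertical axis) of the 13 epithelial genes that were more than 2-fold higher in Ets2 null normal fibroblasts, with Ets2 and without it, in normal (left) and ErbB2 (right) fibroblasts, 1 array per genotype; the dotted line marks log2 6. The lines go up in normal and down in ErbB2 fibroblasts, as for Krt18 (5.21 to 8.78, then 8.52 to 5.01).

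Beyond these lists, the highest and lowest genes were of mixed kinds. S100a3, which encodes a calcium-binding protein and lies next to S100a4, was at 6.38 in Ets2 present and 9.83 in Ets2 null fibroblasts, a difference of 3.45, and was also 4.47 higher on the ErbB2 arrays. Its measured neighbours of the S100 family, taken in gene order, differed by less: S100a1 by 0.47, S100a13 by 0.37, S100a14 by 0.85, S100a16 by -0.13, S100a4 by 0.35, S100a5 by -0.13 and S100a6 by 0.07. Other than S100a4, they were chosen after their values were seen, and S100a14 was under log2 6 on both arrays. The arrays hold no readout of the transgene. Apol8, an apolipoprotein L gene, was at 4.19 and 7.53, and Aldh1a7, an aldehyde dehydrogenase, at 5.41 and 7.82. Clu, the secreted chaperone clusterin, was at 7.81 and 10.07, 4.78-fold higher. Among the lowest, the Wnt antagonist Sfrp2 was at 8.38 and 6.33, 4.14-fold lower, the adipogenic gene Medag at 8.32 and 6.09, the neuronal secreted protein gene Lgi2 at 7.90 and 5.88, the oxysterol hydroxylase Cyp7b1 at 7.87 and 6.06 and the complement gene C1qa, made by macrophages, at 8.38 and 6.61. Of the 34 macrophage and myeloid genes, 26 were below 0 and the median was -0.16. The bright markers of that list, Lyz2 and Csf1r, differed by -0.45 and 0.59.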

How the data were processed

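RNA of 2 normal mammary fibroblast cultures, Ets2db/loxP and FspCre;Ets2db/loxP, was hybridised to Affymetrix mouse genome arrays, 1 array per genotype, and 2 arrays of ErbB2 fibroblasts served for side-by-side values. The authors deposited log2 values made with RMA, which the submitters' processing notes name; its software and version were not stated in the sources used here. RMA subtracts background, equalises the distributions of the arrays and summarises probes into probe sets, so shared shifts are removed. Depth does not apply, and the number of arrays limits the precision.

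Symbols came from the platform's annotation, updated by RefSeq: 34958 had 1 symbol, 932 several and 9211 were unnamed here. A gene took its value from its brightest probe set over the 4 arrays. Differences were computed with Python 3.11.15, pandas 2.3.3 and numpy 2.4.6, loess with statsmodels 0.14.6 (span 0.4), and figures with matplotlib 3.10.9, and the steps were tested on simulated data. In place of a test, sizes of 2-fold and 1.5-fold were counted in 24 lists (934 genes, 867 measured) beside the same over all genes. The comparison, its members and the lists were chosen with earlier results of these data known. Named genes were drawn from the following sets, and not every member of a set is named. From the 5 main lists these were members beyond 2-fold with log2 6 or more on the higher array. They also held the 6 of each role with the largest differences. The remaining sets were Ets2, 4 of each other list, the 20 highest and 20 lowest genes, and the 3 brightest markers of each cell type. Genes outside these sets are marked as chosen after their values were seen. Alternatives were other thresholds, median centring, loess, a floor at log2 6, means over probe sets, omission of cross-hybridising probe sets, and means for medians. RefSeq promoters were those of the GRCm38.p6 build and matched 14453 of 18194 genes.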

Additional observations from a re-analysis of the deposited data

Results flagged for a closer look

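A total of 11 genes of the 5 lists that reached log2 6 on at least 1 normal array were beyond 2-fold in opposite directions in normal and ErbB2 fibroblasts, which is what singled them out. Krt17 (2.07 and -1.67) and Cdh1 (1.38 and -2.42) were also beyond 2-fold in opposite directions but did not reach log2 6 on either normal array. These 2 comparisons share no array, and with 1 array per genotype the difference between them was not tested. Ccn3 had a difference of -2.42 in normal and 2.94 in ErbB2 fibroblasts. The others were higher in normal and lower in ErbB2 fibroblasts without Ets2. Among keratins, Krt18 had 3.57 and -3.52, Krt8 3.09 and -3.10, Krt14 2.73 and -3.33, and Krt7 1.35 and -2.23. Among junction genes, Dsp had 2.34 and -2.17, Cldn4 2.21 and -1.55, and Perp 1.84 and -1.82. Wfdc2 had 2.57 and -1.97, Cd24a 2.10 and -2.74, and the laminin chain Lamb3 2.03 and -1.15. The median of the epithelial list was 0.17 in normal and -0.20 in ErbB2 fibroblasts. These genes other than Ccn3 belong to the epithelial list, apart from the laminin chain Lamb3, and no count of epithelial cells was given for these cultures.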

How the results depend on the processing

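With 1 array per genotype no alternative adds replicate error, and precision is limited by the number of arrays. RMA equalises the distributions, which hides a shift common to most genes. Values under log2 6 may understate differences. At 4-fold, 15 genes were higher and 4 lower in Ets2 null normal fibroblasts, and at 1.5-fold 421 and 341. Centring, loess, the floor at log2 6, the mean over probe sets, leaving out probe sets named _x_at or _s_at and any probe set passing kept the 2-fold counts within 1.5 times, from 89 to 151 higher and from 52 to 82 lower. Requiring log2 6 took the endothelial median to -0.39 and the epithelial median to 0.46, and a mean in place of the median took the epithelial value to 0.47. No other value of the 5 list medians moved by 0.1 or more. The basement membrane median was between -0.03 and 0.06, with no settled direction. The genes of the naming sets that were beyond 2-fold or among the 20 highest and 20 lowest numbered 82. Of these, 68 stayed beyond 2-fold with the mean over probe sets, and none turned sign under the alternatives run. No paired analysis was possible because each genotype has 1 array.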

Other observations

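Targets of bone morphogenetic protein (BMP) signaling were among the higher genes. Of 6 targets, Smad6, an inhibitory Smad, was at 9.15 in Ets2 present and 10.36 in Ets2 null normal fibroblasts, Id2 at 8.55 and 9.59, and Id4 at 9.68 and 10.69, each more than 2-fold higher (3 of 6, beside 0.621% of all genes), and the median of the 6 was 0.89. On other probe sets at log2 6, Id2 had a difference of 0.76 and Id4 had 0.89 and 1.08. Id1 had a difference of 0.78. Beside Smad6 and Nog, these genes were chosen after their values were seen. Of 11 BMP ligands and antagonists 8 were below 0, with a median of -0.24, and 2 were more than 2-fold higher, the antagonists noggin (Nog), at 5.21 and 6.47, and follistatin (Fst), at 8.64 and 9.66. On its other probe set follistatin had a difference of 0.90. In ErbB2 fibroblasts the 6 targets had a median of -0.85. Tgfb1 was at 8.98 and 7.88, and Igfbp3, a binding protein for insulin-like growth factors, at 7.78 and 6.45. The whole list of 36 TGF-beta, BMP and IGF genes had a median of -0.05.

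Muscle and fat genes differed within their lists. The median of 25 skeletal muscle genes was -0.17, and 4 lay lower by over 2-fold (16.0%, beside 0.357% of all genes) and 1 higher. At 1.5-fold 8 were lower (32.0%, beside 1.87%). The embryonic myosin Myh3 was at 6.14 and 4.48 and the light chain Myl1 at 7.88 and 6.22, while skeletal actin Acta1 was at 10.34 and 11.89. The smooth muscle myosin Myh11 was at 8.20 and 9.36. Of 16 adipocyte genes 12 were above 0, with a median of 0.14. Pparg, the master regulator of fat cells, was at 7.74 and 9.53, 3.46-fold higher, the lipid droplet gene Plin4 at 6.38 and 8.33, and Fabp4 at 10.47 and 11.34. Among 46 stress response genes, with a median of -0.08, Ddit3 (CHOP) was at 10.14 and 8.96 and the glutathione transferase Gsta4 at 9.11 and 10.26. The parts of this list differed. Its 18 amino acid and ATF4 targets had a median of -0.22, with 14 below 0. Of these 18, 4 were more than 1.5-fold lower (22.2%, beside 1.87% of all genes) and 0 higher. The 10 endoplasmic reticulum chaperones had a median of -0.12 and the 18 Nrf2 antioxidant targets of 0.07. In 36 cytokine and acute phase genes (median -0.07), the epithelial and stromal cytokine Tslp was at 6.47 and 8.20 and the lipopolysaccharide-binding protein Lbp at 7.73 and 6.55. The interferon response (35 genes, median 0.05), mast cells and basophils (10, -0.04) and lymphocytes (13, 0.11) had 0 genes beyond 2-fold, as had the cell cycle, ETS family and ribosomal protein lists. The Wnt list had a median of 0.00 over 32 genes, the sterol and fatty acid list -0.06 over 27, and Schwann cell markers -0.38 over 6, of which Ngfr was at 7.41 and 6.06.

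Among 10143 probe sets that lack a single symbol, 21 lay higher and 12 lower by over 2-fold.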
